A study of Mus musculus with 6 samples.

Results

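Replication-dependent histone genes encode the core histones H2A, H2B, H3 and H4 and the linker histone H1. They were taken here as every protein-coding gene of GENCODE release M21 whose symbol begins with Hist1h, Hist2h, Hist3h or Hist4h. This gave 67 of the 55450 genes in the deposited count table. Hist1 on chromosome 13 held 54 of them, Hist2 on chromosome 3 held 10, Hist3 on chromosome 11 held 2, and Hist4 on chromosome 6 held 1. By histone type there were 6 H1, 18 H2A, 18 H2B, 12 H3 and 13 H4 genes. The rule reads names only and no measured value.

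Mammary glands were taken whole from virgin female mice of FVB background. The 3 Hpn-/- libraries came from mice made with CRISPR/Cas9 that lack hepsin, a transmembrane serine protease of epithelial cells, and were 6, 6 and 5 weeks old (replicates 1, 2 and 3). The 3 WT libraries were 2, 6 and 5 weeks old (replicates 1, 2 and 3), so the 2 week age occurred in WT alone. Total RNA was depleted of ribosomal RNA rather than selected for poly(A), which leaves transcripts without a poly(A) tail in the library. The sources used here do not say whether animals were pooled or which part of Hpn was disrupted. Hpn itself had 4, 3 and 5 counts in Hpn-/- libraries and 12, 6 and 4 counts in WT libraries, so the targeted gene was too low to check the genotype labels.

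Histone synthesis is tied to DNA replication, when new chromatin has to be packaged. Transcription of these genes depends on NPAT, and most of their mRNAs end not in a poly(A) tail but in a short stem-loop that is bound by SLBP and cut with the help of the U7 snRNP. After replication the mRNAs are degraded quickly, so that in a tissue of mostly resting cells they mark the cells in S phase. Some of these genes are also known in human cells to give polyadenylated transcripts, as HIST2H2BE and HIST1H1C do.

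The stem-loop is the element that sets these mRNAs apart from others. A search for a degenerate histone stem-loop pattern of 16 bases on the transcript strand found it in the annotated transcripts of 46 of the 67 members. It was also found in 64 of 21884 other protein-coding genes (0.292%). Among the 64 were the histone genes H2afx and H2bfm, and Trim17, which overlaps Hist3h2a on the same strand. The stem-loop began 21 to 58 bases after the stop codon (median 31). The letters of 5 members are shown because they cover both stem families and the commonest loops. The stem is in capitals, the loop and 5 bases on each side are in lower case, and the RNA has U where T is written.
Hist1h1c: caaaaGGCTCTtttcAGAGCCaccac
Hist1h3e: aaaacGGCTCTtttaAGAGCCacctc
Hist1h4d: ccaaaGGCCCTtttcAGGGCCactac
Hist1h4b: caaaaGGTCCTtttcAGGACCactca
Hist2h4: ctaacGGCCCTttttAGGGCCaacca

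On GRCm38 the 16 bases of the stem-loop lay at chr13:23739512-23739527 on the plus strand for Hist1h1c, at chr13:23561903-23561918 on the minus strand for Hist1h3e and at chr13:23581950-23581965 on the plus strand for Hist1h4d. They lay at chr13:23757366-23757381 on the plus strand for Hist1h4b and at chr3:96262939-96262954 on the minus strand for Hist2h4. All of these positions are in the 3′ untranslated part of a single exon. The stem separated the types. All 34 members of type H1, H2A, H2B or H3 with a stem-loop had the stem that begins GGCTCT, whereas the 12 H4 members with one had GGCCCT (10 members) or GGTCCT (2 members). Of the 21 members without a match, 15 had an annotated transcript that ends at the stop codon, so the absence there is one of annotation. Hist1h2bc, Hist2h2be, Hist1h2bq and Hist1h2br had none although their annotated transcripts run up to 742, 2192, 1608 and 1803 bases past the stop codon. Hist1h2bc has 1 annotated transcript, of 2 exons, and introns were not searched.

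The deposited counts summed to 11829392 to 18807615 in Hpn-/- libraries and to 10971661 to 14207461 in WT libraries, and loci derived from ribosomal RNA took 78.0% to 84.3% of them. Between 1798932 and 3071401 counts a library remained for all other genes, and 1181 to 2378 of these fell on histone genes, or 0.0516% to 0.0916%. Levels below are CPM after TMM scaling of the library sizes. Markers of the tissue were present, with summed levels of 29.8 to 45.8 CPM in Hpn-/- and 31.4 to 38.02 CPM in WT glands over 10 epithelial genes. Skeletal muscle genes differed far more between libraries than between genotypes, with a summed level of 949, 240 and 15.97 CPM in Hpn-/- replicates 1 to 3, against 616, 104 and 47.2 CPM in WT replicates 1 to 3.

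Histone transcripts as a whole overlapped between the genotypes. The 67 genes summed to 91.5, 114 and 139 CPM in Hpn-/- replicates 1, 2 and 3, against 133, 113 and 164 CPM in WT replicates 1, 2 and 3. The mean was 115 ± 23.5 CPM in Hpn-/- and 137 ± 25.8 CPM in WT glands (SD, n = 3 each), a log2 ratio of -0.25. Hpn-/- replicate 1, the library richest in muscle transcripts, was the lowest, and WT replicate 3 was the highest. Without Hpn-/- replicate 1 the log2 ratio was -0.13, without Hpn-/- replicate 3 it was -0.42 and without WT replicate 3 it was -0.11. At 5 weeks the single Hpn-/- library had 139 CPM and the single WT library 164 CPM. At 6 weeks the mean of 2 Hpn-/- libraries was 103 CPM, against 113 CPM in 1 WT library. These sums were not tested for a difference. In whole tissue, differences in the share of cells in S phase, in histone mRNA per cell and in the mix of cell types cannot be told apart.

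**Figure D1:**
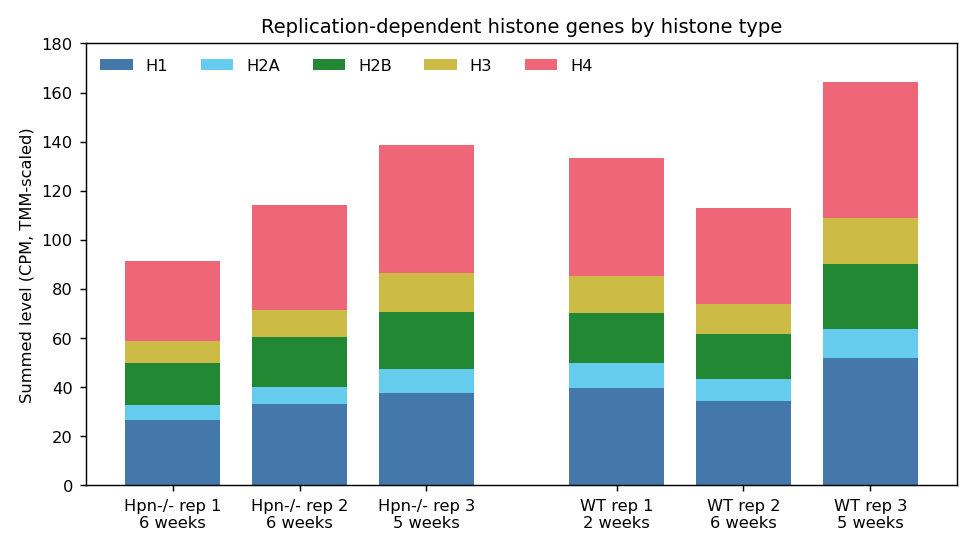
Summed level of the 67 replication-dependent histone genes in each library, in CPM, with the 5 histone types stacked. The Hpn-/- libraries reach 91.5 to 139 CPM and the WT libraries 113 to 164 CPM, and the age of each gland stands under its bar.

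Of the 67 members 38 had enough counts to be tested, and none passed the threshold in edgeR's quasi-likelihood test over 12520 genes (smallest adjusted p = 0.569). Of all genes tested 0.016% passed, all of them higher in Hpn-/- glands. DESeq2 and limma-voom also called 0 members. Before adjustment, p by edgeR was under 0.05 for 1 member on the higher side (background 3.98% of all genes) and for 6 on the lower side (background 2.9%). With DESeq2 these counts were 0 and 2 (286 and 209 over all 12520 genes), and with limma-voom 1 and 7 (436 and 382). In the edgeR fit the log2 fold change was below 0 for 35 members and above 0 for 3, against 49.1% of all tested genes below 0. Its median was -0.34 over the 38 members and 0.00466 over all genes. The members share libraries and, in part, sequence, so they are not independent of each other. With age as a covariate 31 members were below 0 and 7 above, with a median of -0.25. In that fit p before adjustment was under 0.05 for 1 on the lower side and for 0 on the higher side. With no count filter 45 of 57 members were below 0 and 12 above, with a median of -0.21. The count of lower members was 27 of 39 without Hpn-/- replicate 1 and 28 of 38 without WT replicate 3, with a median of -0.19 in both fits. Without Hpn-/- replicate 3 it was 36 of 39, with a median of -0.61. The count filter was applied anew in each of these fits, so the number of tested members differed.

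**Figure D2:**
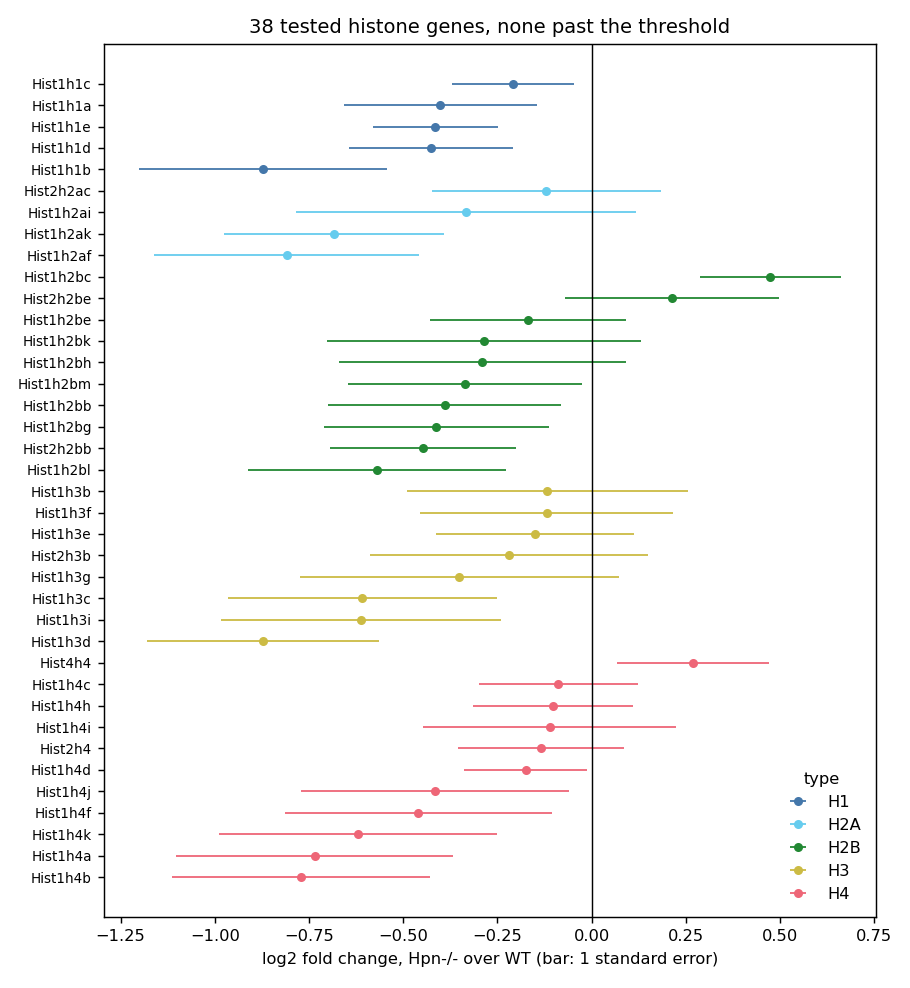
Log2 fold change of Hpn-/- over WT for the 38 tested histone genes, grouped by type, each with 1 standard error on either side. The points lie left of 0 for 35 genes and right of it for Hist1h2bc, Hist4h4 and Hist2h2be, and no gene passed the adjusted threshold.

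Linker histone H1, which binds the DNA between nucleosomes, took 28.5% of the summed histone level in Hpn-/- and 30.5% in WT glands. Hist1h1c (chr13:23738808-23740367) had the most counts of any member, with 12.5, 15.6 and 16.3 CPM in Hpn-/- libraries and 14.5, 15.3 and 21.4 CPM in WT libraries (log2 fold change -0.21, SE 0.162). The groups overlapped, and WT replicate 3 was the high library. Hist1h1e (chr13:23620629-23622558) had 7.14, 8.07 and 8.68 CPM in Hpn-/- libraries and 10.04, 8.70 and 13.1 CPM in WT libraries. Every Hpn-/- value lay below every WT value, by a narrow margin between Hpn-/- replicate 3 and WT replicate 2, and the log2 fold change was -0.41 (SE 0.167, adjusted p = 0.635 by edgeR), or -0.53 to -0.25 when each library was left out. Among all tested genes 5.04% were lower in this way without overlap. Its annotation overlaps that of Hist1h2be on the same strand, so reads could be split between both genes.

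Hist1h1d had 3.30, 5.13 and 5.94 CPM in Hpn-/- libraries, against 6.98, 4.97 and 7.30 CPM in WT libraries. Hist1h1b (chr13:21779883-21780625) had the most negative value of type H1, with 1.92, 1.93 and 3.09 CPM in Hpn-/- and 4.63, 2.20 and 5.96 CPM in WT libraries (log2 fold change -0.87, SE 0.329, adjusted p = 0.635 by edgeR). It ran from -1.17 to -0.58 when each library was left out. WT replicate 2 lay inside the Hpn-/- range, and the other two WT libraries lay above it. At 6 weeks the mean was 1.92 CPM in 2 Hpn-/- libraries and 2.20 CPM in 1 WT library, and at 5 weeks it was 3.09 CPM in Hpn-/- and 5.96 CPM in WT. All of Hist1h1b is free of windows shared with other genes. Hist1h1t, the testis H1, had 4 counts over all libraries. Of 5 male germ cell genes Acrv1, Prm1 and Tnp1 were at 0, and the 5 together had 1 count in Hpn-/- replicate 1 and 1 in WT replicate 3.

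H2A, which pairs with H2B in the nucleosome, was the type with the least of its genes measured. Of 18 genes 4 were tested and 5 had no count. The type summed to 6.34, 6.69 and 9.73 CPM in Hpn-/- libraries, against 10.4, 9.18 and 11.8 CPM in WT libraries (log2 ratio -0.46). Hist1h2ak had 1.32, 1.47 and 2.62 CPM in Hpn-/- libraries and 3.28, 2.10 and 3.44 CPM in WT libraries (log2 fold change -0.68, SE 0.292, adjusted p = 0.668 by edgeR). Hpn-/- replicate 3 lay above WT replicate 2, so the groups overlapped, and the log2 fold change ran from -1.10 to -0.50 when each library was left out. Hist2h2ac (chr3:96220361-96220880) had 1.25, 1.47 and 1.86 CPM in Hpn-/- libraries and 1.42, 1.34 and 2.27 CPM in WT libraries. Hist1h2ai ran from 0.264 to 1.40 CPM in Hpn-/- and from 0.997 to 1.24 CPM in WT libraries, and 89.3% of its windows also occur in other genes. Every one of the 18 H2A genes, and 3 of the 49 others, overlaps an annotated gene on the opposite strand. Of the 22 such partners 17 are annotated as miRNA and 16 had no count in any library.

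H2B, the partner of H2A, was the type with 2 of the 3 members above 0. Hist1h2bc (chr13:23684199-23692908) had 4.82, 5.41 and 5.89 CPM in Hpn-/- libraries, against 3.28, 4.30 and 4.11 CPM in WT libraries. It was the only tested member whose Hpn-/- values all lay above its WT values, where 5.94% of all tested genes were higher in this way. The log2 fold change was 0.47 (SE 0.186, adjusted p = 0.635 by edgeR), and it stayed between 0.35 and 0.55 when each library was left out in turn. The level averaged 5.12 CPM in 2 Hpn-/- libraries and 4.30 CPM in 1 WT library at 6 weeks, and it was 5.89 CPM in Hpn-/- and 4.11 CPM in WT at 5 weeks.

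Hist2h2be (chr3:96221119-96223738) had 1.72, 1.74 and 1.63 CPM in Hpn-/- libraries and 1.21, 1.34 and 1.85 CPM in WT libraries (log2 fold change 0.21, SE 0.284), with WT replicate 3 above all Hpn-/- libraries. Hist2h2bb had 1.92, 2.48 and 2.51 CPM in Hpn-/- and 2.71, 2.58 and 4.11 CPM in WT libraries, without overlap (log2 fold change -0.45, SE 0.247, adjusted p = 0.819 by edgeR). It lies wholly within an exon of the opposite-strand gene Gm20628, which had 1 to 4 counts a library. On its own strand Hist2h2bb also overlaps the lincRNA Gm42743, which holds 153 of its 307 windows and had 0 to 5 counts a library. Hist1h2be had 1.92, 2.02 and 1.92 CPM in Hpn-/- libraries and 1.64, 2.58 and 2.43 CPM in WT libraries. As a type, H2B summed to 20.2 ± 3.26 CPM in Hpn-/- and 21.7 ± 4.14 CPM in WT glands (SD, n = 3 each).

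H3, which forms the central tetramer of the nucleosome with H4, summed to 8.99, 10.9 and 15.9 CPM in Hpn-/- libraries, against 15.2, 11.9 and 19.04 CPM in WT libraries. All 8 tested H3 genes had a log2 fold change below 0. Hist1h3e had 2.18, 2.84 and 4.20 CPM in Hpn-/- libraries and 2.71, 3.25 and 4.45 CPM in WT libraries, and the groups overlapped. Hist1h3f had 1.45, 1.74 and 3.03 CPM in Hpn-/- libraries and 2.92, 1.24 and 2.6002 CPM in WT libraries, with WT replicate 2 lowest of the 6. Hist1h3c had 0.727, 1.19 and 1.51 CPM in Hpn-/- and 2.14, 0.956 and 2.10 CPM in WT libraries. Hist1h3d had the smallest adjusted p of the members. It had 0.793, 0.917 and 1.05 CPM in Hpn-/- libraries and 1.71, 1.43 and 1.93 CPM in WT libraries (log2 fold change -0.87, SE 0.308, adjusted p = 0.569 by edgeR). Its groups did not overlap, and the log2 fold change stayed between -0.999 and -0.778 when each library was left out in turn.

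H4 took the largest share of the summed level, 36.9% ± 1.02 in Hpn-/- and 34.7% ± 1.22 in WT glands (SD, n = 3 each). Hist1h4d (chr13:23581598-23582735) had 11.2, 15.4 and 17.5 CPM in Hpn-/- libraries and 17.2, 14.1 and 18.4 CPM in WT libraries (log2 fold change -0.17, SE 0.164). Hist1h4h had 4.49, 5.78 and 6.94 CPM in Hpn-/- and 7.26, 4.30 and 6.79 CPM in WT libraries. Hist1h4c had 4.03, 6.24 and 6.29 CPM in Hpn-/- libraries, against 5.77, 4.49 and 7.21 CPM in WT libraries. The groups of these 3 genes overlapped. Hist1h4b, whose stem-loop is the rarer GGTCCT form, had 0.727, 0.642 and 1.46 CPM in Hpn-/- libraries and 1.57, 1.62 and 1.84 CPM in WT libraries, without overlap (log2 fold change -0.77, SE 0.343, adjusted p = 0.680 by edgeR).

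Hist4h4 (chr6:136801553-136804415), the only gene of its cluster, had 5.09, 5.87 and 7.23 CPM in Hpn-/- libraries and 4.56, 4.11 and 6.46 CPM in WT libraries (log2 fold change 0.27, SE 0.201, adjusted p = 0.876 by edgeR), with 0.11 to 0.48 when each library was left out. Its level overlapped between the genotypes, but its share of the summed histone level was 5.56%, 5.14% and 5.21% in Hpn-/- libraries and 3.41%, 3.64% and 3.93% in WT libraries, without overlap. Of the 38 tested members, 3 had a higher share in every Hpn-/- library than in any WT library (Hist1h4c, Hist4h4 and Hist1h2bc) and 2 had a lower one (Hist1h4b and Hist1h3d). Hist1h4c separated by a narrow margin, with a lowest share of 4.404% in Hpn-/- and a highest of 4.394% in WT libraries. Among the levels of all tested genes 5.94% were higher and 5.04% lower without overlap. The counts of 3 and 2 members by share are close to this, but shares are another measure than levels and were not tested. By level, 1 of the 38 tested members was higher without overlap and 5 were lower, 1 of each histone type. The members are not independent of each other, and these counts were not tested. Hist2h4, the H4 gene of the Hist2 cluster, had 2.91, 4.31 and 4.90 CPM in Hpn-/- and 3.77, 4.21 and 5.37 CPM in WT libraries.

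**Figure D3:**
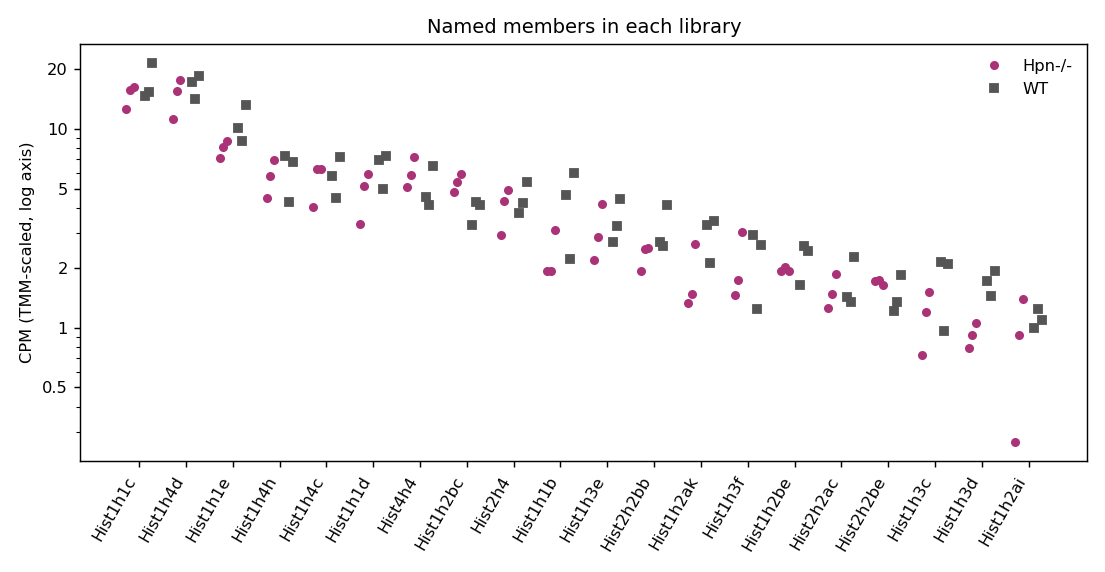
Level of the 20 histone genes named by rule in each library, in CPM on a log axis, ordered by mean level, with Hpn-/- libraries as circles and WT libraries as squares. Hist1h1c and Hist1h4d reach 11.2 to 21.4 CPM, and only for Hist1h2bc do all Hpn-/- circles lie above all WT squares.

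By cluster, Hist1 summed to 96.9 ± 20.9 CPM in Hpn-/- and 119 ± 21.9 CPM in WT glands, and Hist2 summed to 11.3 ± 1.89 CPM in Hpn-/- and 12.6 ± 3.06 CPM in WT glands (SD, n = 3 each). Hist1 had 1 tested member above 0 and 31 below, and Hist2 had 1 above and 4 below. Neither gene of Hist3 was tested. They had 3 to 13 counts together in a Hpn-/- library and 3 to 7 in a WT library.

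A few genes carried most of the signal. Hist1h1c, Hist1h4d, Hist1h1e, Hist1h4h, Hist1h4c, Hist4h4 and Hist1h1d together took 50.5% of the 10020 counts on members. Because annotated exons differ in length, levels of different genes were compared per kilobase of exon. Hist1h4d had the highest level with 13.7 CPM per kilobase over the 6 libraries, followed by Hist1h4h with 12.6, Hist1h1c with 10.2, Hist2h2bb with 7.13 and Hist1h4c with 6.92. Hist4h4 stood at 1.94 CPM per kilobase and Hist1h1d at 0.755, since both are annotated with long transcripts.

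The 29 untested members fell in 2 kinds. There were 19 with 1 to 65 counts over the 6 libraries, of which Hist1h3a had the most, at 0.408 to 0.734 CPM in Hpn-/- and 0.783 to 1.51 CPM in WT libraries. Its values did not overlap, but it stood outside the test. The other 10 were listed at 0 in every library (Hist1h2aa, Hist1h2ao, Hist1h2ap, Hist1h2bq, Hist1h2br, Hist1h4m, Hist1h4n, Hist2h2aa1, Hist2h2aa2 and Hist2h3c1). A count of 0 allows up to 3 counts in a library, or 0.175 to 0.286 CPM, by counting error only.

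Many members are near copies of each other, so a 75-base read can match several of them. Of all 75-base windows of a member's transcripts, a median of 36.9% also occurred in another gene that does not overlap it. This share was over 50% for 27 members, of which 9 were tested and 18 were not. Of the 10 members at 0, Hist2h2aa2 had 100% of its windows elsewhere, and all but Hist1h2aa and Hist2h3c1 had over 80%. Hist1h2aa shared windows with a gene that overlaps it (17.4%) and with no other. Hist2h3c1 had 33.8% of its windows elsewhere, and 100% of them also occurred in Gm20634, which overlaps it on the same strand. The sources used here do not say how reads that match several genes were counted, so a count of 0 for a near copy is a statement about assignable reads. Of the 3 genes with the highest levels per kilobase, Hist1h4d had 3.67% of its windows elsewhere, Hist1h4h 42.4% and Hist1h1c 6.66%.

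**Figure D4:**
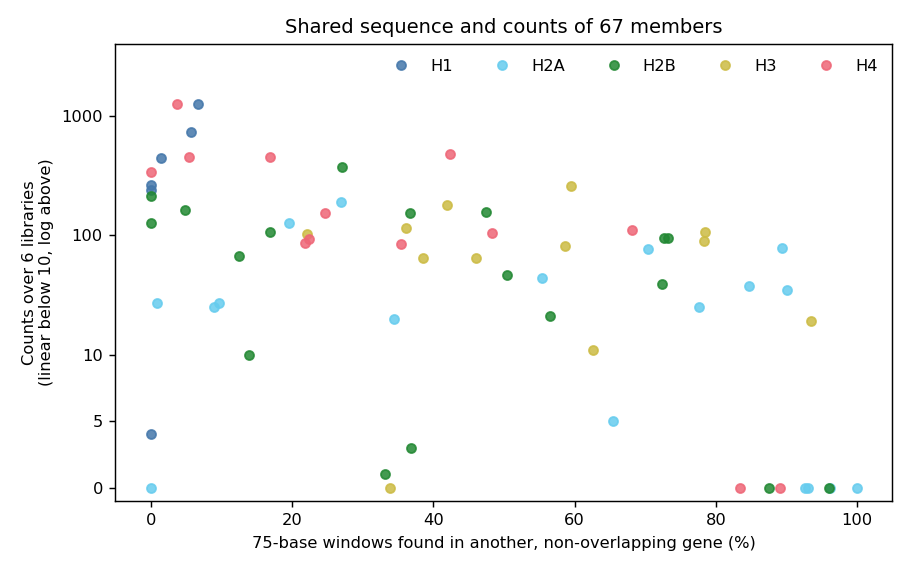
Counts of each of the 67 histone genes over the 6 libraries (log axis above 10, linear below) against the percentage of its 75-base windows that also occur in another gene that does not overlap it. Of the 10 genes at 0, 8 lie at the right edge with over 80% of windows in such genes, and the 2 genes with the most counts have 3.67% and 6.66%.

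The members were also set apart by annotated length after the stop codon. Of the 16 members with at least 700 annotated bases after the stop codon 11 were tested, 3 of them above 0 and 8 below, with a median log2 fold change of -0.18. Of the 51 others 27 were tested, all below 0, with a median of -0.40. The limit of 700 bases was set after the values had been seen and carries no test. Members with the stem-loop had a median of -0.29 over 26 tested genes, and members without one -0.51 over 12. Of all 21 members without one, 17 have under 50 annotated bases after the stop codon. A stem-loop can lie beyond such an end, so this split is in large part one of annotation. Of the 12 tested, Hist1h2bc (0.47) and Hist2h2be (0.21), both annotated further, were above 0 and the other 10 below.

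The promoters were examined because pairs of H2A and H2B genes often share one. There were 12 such divergent pairs, with 175 to 305 bases between their start sites. Both genes of a pair were tested in 2 of them. Hist2h2ac and Hist2h2be, read from the same 238 bases in opposite directions, had 128 and 126 counts and log2 fold changes of -0.12 (SE 0.304) and 0.21 (SE 0.284). Hist1h2bl and Hist1h2ai had -0.57 and -0.33. Hist1h2bc faces Hist1h2ac, which had 27 counts against 373. The stretch between the starts of Hist2h2ac and Hist2h2be (RefSeq, GRCm38.p6, chr3:96220881-96221118, minus strand) is shown with its motifs in capitals, as is the stretch before the start of Hist1h1c (RefSeq, GRCm38.p6, chr13:23738557-23738806, plus strand), the member with the most counts.
Hist2h2ac: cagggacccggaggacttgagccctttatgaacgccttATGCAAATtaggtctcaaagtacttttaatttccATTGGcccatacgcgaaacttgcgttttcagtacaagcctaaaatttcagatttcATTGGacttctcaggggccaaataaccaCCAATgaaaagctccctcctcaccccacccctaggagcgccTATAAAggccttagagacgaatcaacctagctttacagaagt
Hist1h1c: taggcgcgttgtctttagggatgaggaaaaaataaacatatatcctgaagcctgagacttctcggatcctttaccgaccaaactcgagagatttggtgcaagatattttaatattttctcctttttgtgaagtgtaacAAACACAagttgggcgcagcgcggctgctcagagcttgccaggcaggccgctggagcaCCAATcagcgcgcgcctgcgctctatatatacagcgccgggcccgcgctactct

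The capitals mark the TATA box as TATAAA, the CCAAT box as CCAAT and the octamer as ATTTGCAT. In H1 genes they also mark the motif AAACACA. Each was searched on both strands, and none of the matches overlap in these 2 windows. In the stretch of Hist2h2ac TATAAA begins 42 bases before the start, CCAAT 83 bases before it, and the octamer, on the other strand, 200 bases before it. Over the 62 members with a RefSeq window of 250 bases before to 50 after the start, CCAAT was found in 53 (85.5%), against 37.4% of 32851 windows of all genes. It was in every window of H1, H2A, H2B and H3 genes but in 3 of 12 of H4 genes. TATAAA was found in 56.5% of member windows, against 13.6% of all windows. The octamer occurred in 7 of 18 H2A and 6 of 16 H2B windows, in none of the H1, H3 and H4 windows, and in 1.74% of all windows. AAACACA was in 5 of 6 H1 windows, against 7.18% of all windows. Windows of a divergent pair can cover the same bases, so 1 match can count for both genes, as with the octamer of Hist1h2aa and Hist1h2ba. These are matches of letters, not sites shown to be bound.

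Genes of S phase stood beside the histones. Of 31 genes for DNA replication 27 were tested, 26 with a log2 fold change below 0 and 1 above, with a median of -0.39, and none passed the threshold. Before adjustment, p was under 0.05 for 7 on the lower side and for 0 on the higher side. Of all tested genes 2.9% were lower and 3.98% higher at this limit, and 49.1% had a log2 fold change below 0. The genes of the list share libraries, and these counts were not tested. Their summed level was 63.2, 71.7 and 92.5 CPM in Hpn-/- libraries, against 93.6, 89.5 and 107 CPM in WT libraries. As with the histones, Hpn-/- replicate 1 was the lowest library and WT replicate 3 the highest. Lig1, the ligase that joins Okazaki fragments, had 2.95 ± 0.557 CPM in Hpn-/- and 4.49 ± 0.566 CPM in WT glands (log2 fold change -0.58, adjusted p = 0.569 by edgeR). Gins2, of the replicative helicase, had 0.584 ± 0.121 CPM in Hpn-/- and 1.23 ± 0.361 CPM in WT glands. Pole, the leading-strand polymerase, had 2.96 ± 0.623 CPM in Hpn-/- and 4.47 ± 1.15 CPM in WT glands (SD, n = 3 each). Rrm1, the large subunit of ribonucleotide reductase and the most abundant of the list, had 7.31 ± 0.786 CPM in Hpn-/- and 7.81 ± 0.567 CPM in WT glands.

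Genes of G2 and mitosis varied more. All 16 tested of 20 were below 0 (background 49.1% of all genes), with a median of -0.65. Of them 8 had an unadjusted p under 0.05 by edgeR (background 2.9% on the lower side), and none passed the threshold. Their summed level was 27.6, 32.9 and 42.7 CPM in Hpn-/- libraries and 59.4, 36.7 and 66.4 CPM in WT libraries. Mki67, a marker of cycling cells, had 10.4 ± 2.33 CPM in Hpn-/- and 16.7 ± 4.68 CPM in WT glands (log2 fold change -0.67, adjusted p = 0.567 by edgeR). Cdk1, the kinase that starts mitosis, had 0.926 ± 0.468 CPM in Hpn-/- and 2.11 ± 0.673 CPM in WT glands. Kif20a, a kinesin of cell division, had 0.840 ± 0.319 CPM in Hpn-/- and 1.80 ± 0.823 CPM in WT glands (SD, n = 3 each). The histone sum was 1.79 times as high in the highest library as in the lowest, the S phase sum 1.70 times and the mitotic sum 2.41 times.

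**Figure D5:**
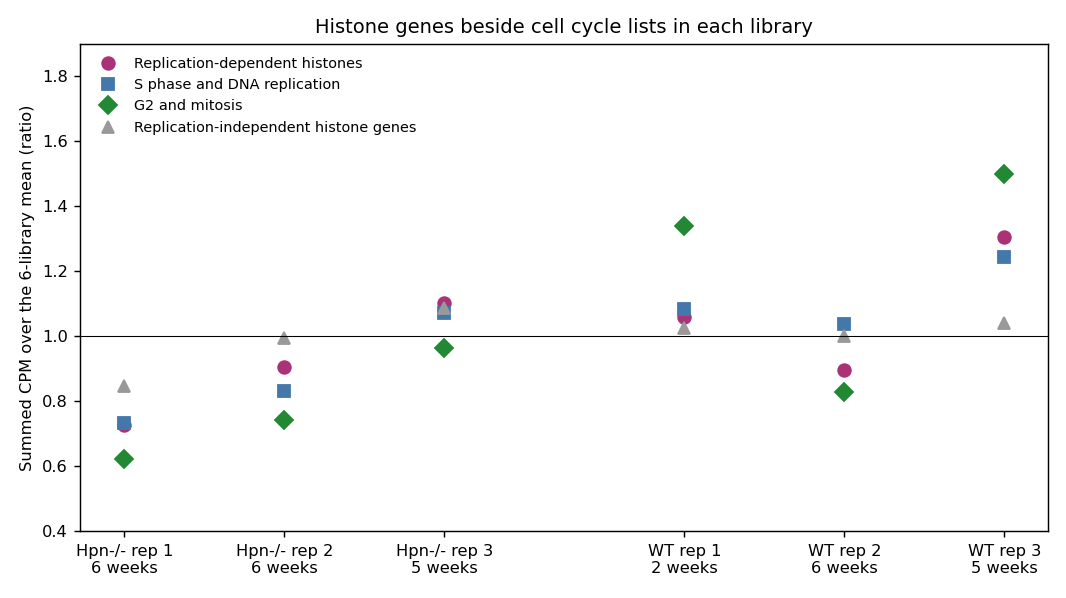
Summed CPM of 4 gene groups in each library as a ratio to the mean of the 6 libraries, so that 1 is the mean. All 4 sums are lowest in Hpn-/- replicate 1. The histone, S phase and mitotic sums are highest in WT replicate 3. The replication-independent histone genes are highest in Hpn-/- replicate 3 and span a smaller range, 74.1 to 95.3 CPM.

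Replication-independent histone genes, whose mRNAs are mostly polyadenylated and made through the cell cycle, had 10 of 11 members tested. Of these 4 were above 0 and 6 below (median -0.11), with none called and none at an unadjusted p under 0.05 by edgeR. Their summed level was 74.1, 87.3 and 95.3 CPM in Hpn-/- libraries and 89.8, 87.8 and 91.3 CPM in WT libraries. H3f3b, which encodes the replacement histone of H3, had 18.1 ± 1.89 CPM in Hpn-/- and 20.8 ± 1.47 CPM in WT glands, and H2afv had 3.92 ± 0.941 CPM in Hpn-/- and 4.78 ± 0.940 CPM in WT glands (SD, n = 3 each). H2afx, a histone of the DNA damage response that also carries the stem-loop, had 3.38 ± 0.330 CPM in Hpn-/- and 4.29 ± 1.09 CPM in WT glands (log2 fold change -0.37, adjusted p = 0.832 by edgeR).

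Factors that make histone mRNA were spread on both sides of 0. Of 18 tested genes for its transcription and 3′ processing 7 were above 0 and 11 below, with a median of -0.01, none called and none at an unadjusted p under 0.05 by edgeR. Their summed level was 160 to 175 CPM in Hpn-/- and 164 to 171 CPM in WT libraries. Hinfp, which binds H4 promoters, had 5.95 ± 0.773 CPM in Hpn-/- and 4.77 ± 0.891 CPM in WT glands. Ncbp2, of the cap-binding complex, had 4.87 ± 0.0942 CPM in Hpn-/- and 6.03 ± 0.279 CPM in WT glands, without overlap (log2 fold change -0.31, adjusted p = 0.797 by edgeR). Among all tested genes 5.04% were lower without overlap. Cstf2, of the cleavage complex, had 8.42 ± 1.64 CPM in Hpn-/- and 6.93 ± 1.54 CPM in WT glands. Srrt, which works with the cap-binding complex, had 25.1 ± 4.07 CPM in Hpn-/- and 25.7 ± 3.54 CPM in WT glands (SD, n = 3 each).

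Of 19 tested chaperones and importers of histones 5 were above 0 and 14 below (median -0.14), with none called. At an unadjusted p under 0.05 by edgeR, 3 were lower (background 2.9% of all genes). These 3 were Ipo4, Hat1 and Chaf1a. The list summed to 248.6, 252.2 and 249.9 CPM in Hpn-/- libraries and to 252.7, 253.5 and 256.2 CPM in WT libraries. These sums did not overlap, by a narrow margin, and were not tested. Ipo4, which imports H3 and H4, had 3.37, 3.21 and 4.78 CPM in Hpn-/- libraries and 5.13, 5.73 and 6.88 CPM in WT libraries (log2 fold change -0.62, SE 0.201, adjusted p = 0.510 by edgeR). Hat1, which acetylates new H4, had 1.92, 1.65 and 1.63 CPM in Hpn-/- libraries and 2.85, 2.87 and 2.52 CPM in WT libraries (log2 fold change -0.66, SE 0.238, adjusted p = 0.598 by edgeR). For both genes every Hpn-/- library lay below every WT library, as for 5.04% of all tested genes. Chaf1a, of the chromatin assembly factor that follows the replication fork, had 1.97 ± 1.07 CPM in Hpn-/- and 3.50 ± 1.05 CPM in WT glands. Atrx, a chaperone partner for replacement H3, had 48.5 ± 5.50 CPM in Hpn-/- and 42.5 ± 3.50 CPM in WT glands (SD, n = 3 each).

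Markers of other cell types are given beside these genes. All 12 markers of T and B lymphocytes were above 0 (median 0.47), and their sum was 91.0 to 120 CPM in Hpn-/- and 68.7 to 89.1 CPM in WT libraries, the one marker sum without overlap. Of 7 fibroblast markers 6 were below 0 (median -0.45), with a sum of 2062 to 3132 CPM in Hpn-/- and 2867 to 3964 CPM in WT libraries. The 10 muscle markers had 9 above 0, and the ranges of their sum overlapped widely. Macrophage markers summed to 137 to 181 CPM in Hpn-/- and 126 to 153 CPM in WT libraries, germinal centre B cell markers to 12.7 to 17.8 CPM in Hpn-/- and 15.6 to 25.8 CPM in WT libraries, and adipocyte markers to 1865 to 1942 CPM in Hpn-/- and 1698 to 2038 CPM in WT libraries. None of these markers was called by edgeR. Before adjustment, 9 of 12 lymphocyte markers were higher and 5 of 7 fibroblast markers lower with p under 0.05. At the same limit Lyz2 (macrophage) and Retn (adipocyte) were higher, and Mrc1 (macrophage) and Krt8 (epithelium) were lower. Of the 8 tested epithelial markers 6 were above 0. Over all tested genes 3.98% were higher and 2.9% lower at this limit. The part of these cell types, and that of age, in the histone levels was not tested beyond the fits with age.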

How the data were processed

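Rows of the deposited table are read counts per gene, not normalized, for 3 Hpn-/- and 3 WT libraries of single-end 75-base reads made with a directional kit, per the labels' protocols. Among the tools in the submitters' processing notes are STAR 2.6.0c, Trimmomatic and featureCounts, with the build GRCm38. The strand setting, the annotation and the treatment of reads that match several genes are not given in these sources. All 55450 identifiers matched GENCODE release M21.

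In R 4.3.3, edgeR 4.0.16 kept 12520 genes by filterByExpr (minimum count 10, minimum total 15), scaled libraries by TMM (factors 0.914 to 1.24) and fitted a robust quasi-likelihood model on genotype. The common biological coefficient of variation was 0.154. Two-sided p-values were adjusted over all tested genes by Benjamini-Hochberg, with a threshold of 0.05. A log2 fold change is Hpn-/- over WT. Each library has an identifier of its own in its title and the WT glands differ in age, but no label says outright that every library is a separate animal, and the p-values reflect only the spread between these samples. Within a genotype, libraries differed by more than sampling noise (chi-square over its degrees of freedom 6.72 to 32.1).

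Values in every library were given for the 3 most abundant tested members of each type, the most abundant of each cluster and the 3 of smallest p in each direction. Hist1h4b, Hist1h2aa and Hist2h3c1 and the libraries left out by name were chosen after their values were seen. Each pathway list is represented by its most abundant gene and the 3 with the smallest p. The members and lists were chosen with earlier results of these data known. Alternatives were other scalings and filters, DESeq2 1.42.0, limma-voom (limma 3.58.1), a replicate block, age, leaving out ribosomal RNA loci, and leaving out each library.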

Additional observations from a re-analysis of the deposited data

How the results depend on the processing

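No histone gene was called under any of the 16 alternatives, and of 320 values for the 20 named genes 303 kept their sign. The smallest adjusted p of a member was 0.0525 with no count filter and 0.0702 without Hpn-/- replicate 3. The median log2 fold change of tested members ran from -0.61 to -0.19, and the log2 ratio of the sum from -0.42 to -0.11, when each library was left out. Over all genes the main count of 2 became 100 with no count filter, 8 with DESeq2, 0 with limma-voom (436 higher and 382 lower at an unadjusted p under 0.05), 0 with age as a covariate (287 and 190) and 4 in the 5 and 6 week libraries with age. It ran from 0 to 200 when each library was left out, with 200 without Hpn-/- replicate 3 and 0 without Hpn-/- replicate 2, WT replicate 1 or WT replicate 2. The sign turned for Hist1h3f with age (0.30) and in the 5 and 6 week libraries (0.27), and for Hist1h4h (0.14 and 0.13). It also turned when single libraries were left out for Hist1h2ai (-1.001 to 0.098), Hist1h3e (-0.48 to 0.062), Hist1h3f (-0.54 to 0.12), Hist1h4c (-0.23 to 0.086), Hist1h4h (-0.29 to 0.041), Hist2h2ac (-0.31 to 0.15) and Hist2h4 (-0.33 to 0.049). The causes were not tested. With 1181 to 2378 histone counts a library, the standard error of a member's log2 fold change was 0.162 to 0.451. Depth, the spread between libraries and the number of libraries all limit this error, and their parts were not separated.

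The labels number the libraries within each genotype. Same-numbered libraries correlated in their deviations from the group means by 0.167, 0.0732 and 0.368, so the numbers do not all pair the samples. With the replicate block 9 genes were called, none of them a histone gene (smallest adjusted p of a member 0.207). Each library correlated best with its own number except WT replicate 2, which correlated most with Hpn-/- replicate 1 (0.127).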
